A study of Mus musculus with 2 samples.

Results

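Cxcl12, the chemokine that holds hematopoietic stem cells and B cell progenitors in the bone marrow, was followed together with the eGFP allele at its own locus and with its receptors Cxcr4 and Ackr3 in cells sorted from mouse femurs. These 4 members were chosen by their names among the 28006 features of the count tables, and all 4 were found in both libraries. The mice carried the alleles Cxcl12(GFP/+), Cxcl12-iCreER and R26R(tdTomato/+). In Cxcl12(GFP/+) mice 1 allele of Cxcl12 carries eGFP and the other is intact, the recombinase comes from a bacterial artificial chromosome transgene driven by Cxcl12 sequences, and tdTomato reports its activity. Tamoxifen was given at postnatal day 21, and the femurs were taken at postnatal day 28. Each of the 2 mice gave 1 library of single cells, so the series holds 1 group, and every comparison below is between cell classes of the same 2 animals. The labels describe GFP+ cells, apart from 1 protocol field that names tdTomato+ cells, and the study's methods describe a gate on high GFP. A gate on GFP bears on which cells entered, and so on the eGFP and Cxcl12 levels of every class.

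CXCL12 is secreted mainly by perivascular reticular cells of the marrow and, at lower levels, by endothelial and osteogenic cells. CXCR4 is the receptor that turns CXCL12 into migration and retention through G proteins. ACKR3 binds the same ligand and takes it up without G protein signaling, so it is known as a scavenger that shapes CXCL12 gradients, above all on endothelium. Levels are given as CPM, the unique molecular identifiers (UMIs) of a gene per 1000000 UMIs of a class in 1 mouse. The libraries count the 3′ ends of transcripts, so a level was compared between classes for 1 gene and not between genes.

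After barcodes with under 1000 genes or over 15% mitochondrial UMIs were left out, the mice kept 2750 and 4582 cells, from libraries of 54940400 and 88790688 UMIs. Cells were clustered without the members, the reporters and the pathway genes, although genes that vary with them stayed in. All 8 fixed reticular markers were raised in the 4 reticular-like clusters (1242 and 2425 cells), all 8 endothelial markers in the arterial-like (123 and 110 cells) and sinusoidal-like clusters (29 and 29 cells), and 4 of 7 markers in the mature osteoblast-like cluster (14 and 62 cells). Support was also partial for the preosteoblast-like (6 of 8 markers), periosteal-like (5 of 8) and B-like clusters (4 of 5). Blood cells, which the gate should lack, made up 721 and 710 cells. A mixed monocyte and macrophage cluster is called myeloid-like cluster 11, and clusters 8 and 13 stayed unnamed, the first for its shallow cells and the other because cell cycle genes led it. Both libraries shared 7 cell barcodes, and leaving out these cells changed no call of the members.

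Cxcl12 spans chr6:117168535-117181368 on the plus strand of the mouse build GRCm38.p6. The same promoter serves the intact allele and, in the knock-in, eGFP. It is shown with those of Cxcr4 (gene at chr1:128588199-128592299, minus strand) and Ackr3 (chr1:90203980-90215724, plus strand), since ligand and receptors were highest in different classes. The 250 bases before each RefSeq start are printed 5′ to 3′ on the gene's strand, and capitals mark matches, on either strand, of a TATA box searched as TATAAA and of a GC box, for which the letters were GGGCGG. Overlapping matches run together. The regions are chr6:117168285-117168534 for Cxcl12, chr1:128592300-128592549 for Cxcr4 and chr1:90203730-90203979 for Ackr3.
Cxcl12: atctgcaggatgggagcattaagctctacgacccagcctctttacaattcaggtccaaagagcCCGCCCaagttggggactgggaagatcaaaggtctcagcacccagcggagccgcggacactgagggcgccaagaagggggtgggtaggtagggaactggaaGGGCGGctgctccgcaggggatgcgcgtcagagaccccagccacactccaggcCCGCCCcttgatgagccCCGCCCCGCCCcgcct
Cxcr4: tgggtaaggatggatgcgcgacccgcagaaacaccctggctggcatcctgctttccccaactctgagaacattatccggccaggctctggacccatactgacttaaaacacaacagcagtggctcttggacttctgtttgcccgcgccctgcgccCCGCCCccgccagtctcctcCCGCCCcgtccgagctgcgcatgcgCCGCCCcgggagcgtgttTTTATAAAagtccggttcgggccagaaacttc
Ackr3: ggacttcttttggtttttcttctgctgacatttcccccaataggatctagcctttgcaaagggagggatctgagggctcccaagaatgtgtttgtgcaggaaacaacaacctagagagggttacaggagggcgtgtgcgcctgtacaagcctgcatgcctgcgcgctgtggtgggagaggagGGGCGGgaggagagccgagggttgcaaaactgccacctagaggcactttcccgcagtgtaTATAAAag
The Cxcl12 window held 5 matches of GGGCGG and 0 of TATAAA. Both receptor windows held TATAAA, and GGGCGG matched 3 times for Cxcr4 and 1 time for Ackr3. Of 32851 promoter windows of this length, 12.4% held TATAAA and 32.7% held GGGCGG. These matches describe letters only.

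Reticular-like cells stood above every other class in Cxcl12. They held 8989 CPM in Mouse #1 and 9045 CPM in Mouse #2, and they contributed 79.4% and 84.1% of all Cxcl12 UMIs of the cells from 45.2% and 52.9% of the cells. Preosteoblast-like cells followed among the named classes with 3314 and 2101 CPM, and periosteal-like cells with 2840 and 2021 CPM. The ranges of these 2 classes overlapped, whereas neither reached the reticular-like level. Sinusoidal-like cells held 1054 and 2309 CPM and arterial-like cells 966 and 970 CPM. The lowest level belonged to mature osteoblast-like cells, the bone-forming cells led by Bglap and Ifitm5, with 47.9 and 141 CPM, from only 14 and 62 cells. The unnamed clusters held 2852 and 3017 CPM (cluster 8) and 1899 and 1922 CPM (cluster 13). The mean of the 2 mice was 9017 ± 39.5 CPM in reticular-like, 2707 ± 858 CPM in preosteoblast-like and 968 ± 2.86 CPM in arterial-like cells (SD, n = 2 mice).

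**Figure D1:**
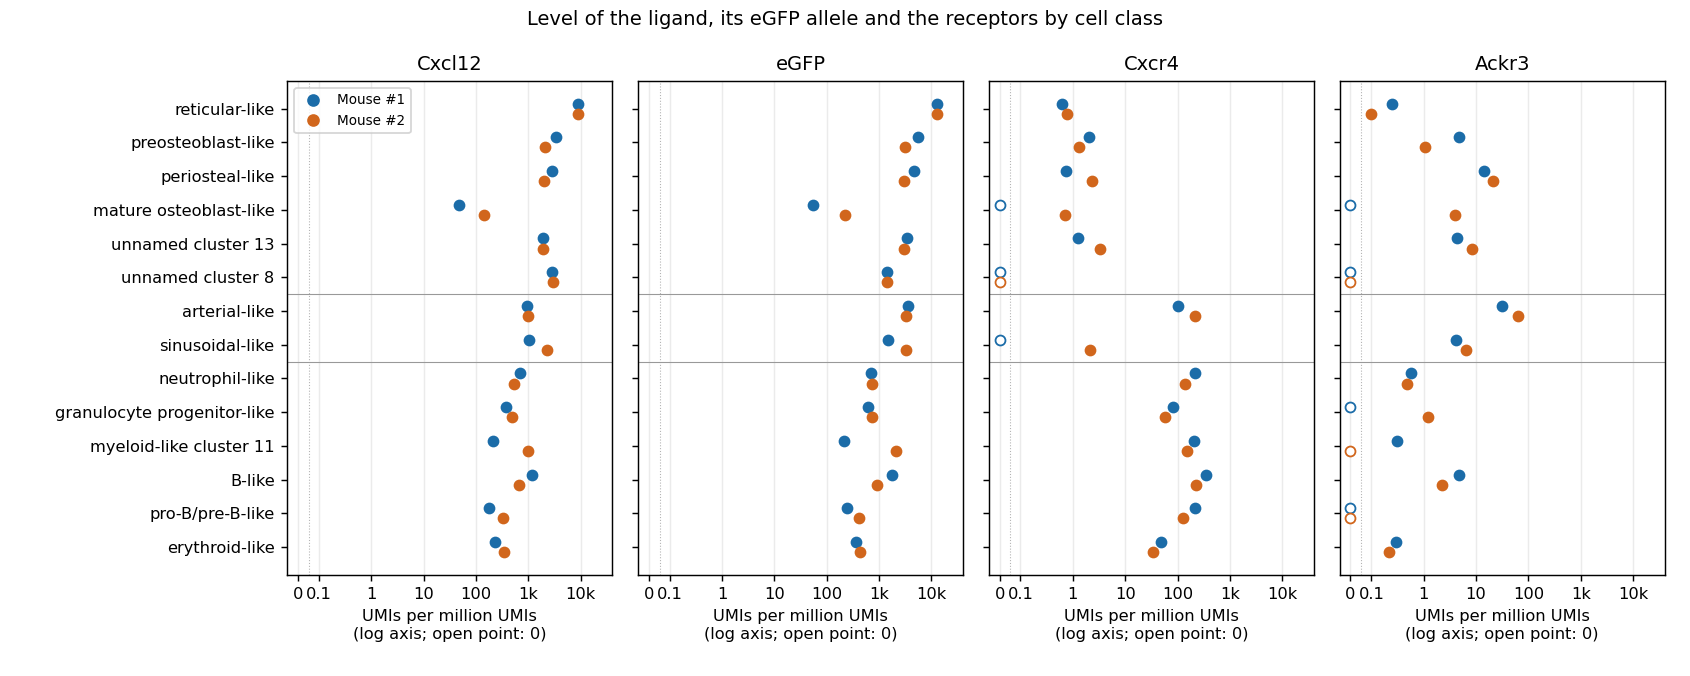
Levels of Cxcl12, eGFP, Cxcr4 and Ackr3 in 14 cell classes as CPM on a log axis, 1 point per mouse and open points for 0 UMIs; lines part stromal, endothelial and blood classes. Reticular-like cells sit highest for Cxcl12 (8989 and 9045) and low for both receptors, and arterial-like cells hold both receptors.

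The eGFP allele ordered the named classes in a similar way. Reticular-like cells held 12774 and 12501 CPM of eGFP, against 5476 and 3175 CPM in the preosteoblast-like and 4655 and 2969 CPM in the periosteal-like class. Arterial-like cells, with 3596 and 3271 CPM, lay within the range of the periosteal-like cells. Sinusoidal-like cells held 1480 and 3261 CPM, and mature osteoblast-like cells 55.5 and 225 CPM. An EYFP feature that resembles eGFP had at most 11 and 22 UMIs in a class, and reads that matched both sequences could have been dropped before counting, so eGFP levels are read between classes and not as the output of 1 allele against the other.

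The contrasts asked how far the members differ between the main stromal cells and their neighbours. Against preosteoblast-like cells, which lie on the way to osteoblasts, reticular-like cells were higher in Cxcl12 by 1.83 ± 0.29 and in eGFP by 1.64 ± 0.37 on the log2 scale (± SE, edgeR quasi-likelihood test, adjusted p = 0.000969 and 0.00806, 2 mice, both in the same direction). Ackr3 was lower, at -3.83 ± 0.79 (log2, edgeR adjusted p = 0.00461), and Cxcr4 did not pass the test (-1.07 ± 0.64, edgeR adjusted p = 0.292). It passed without a filter on low counts (-1.06, edgeR adjusted p = 0.0238) and with free RNA subtracted (-4.94, edgeR adjusted p = 0.0154). Reticular-like cells held only 10 and 23 Cxcr4 UMIs. The upper limit on free RNA was 1.68% and 8.95% of UMIs in reticular-like against 1.22% and 1.10% in preosteoblast-like cells. What part the subtraction itself had in the -4.94 was not tested. In the main fit 3 of the 4 members were called, beside 20.3% of the 13326 genes tested (10.8% higher and 9.52% lower). Against periosteal-like cells, marked by Aspn and Mfap5, the same 3 members were called, beside 18.2% of all genes (9.19% higher and 9.01% lower). The log2 differences were 1.90 ± 0.30 for Cxcl12, 1.74 ± 0.37 for eGFP and -6.75 ± 0.72 for Ackr3 (edgeR adjusted p = 0.000764, 0.0064 and 5.4e-05), and Cxcr4 stood at -1.36 ± 0.99 (edgeR adjusted p = 0.386). When the profile of free RNA was subtracted from the sums, the differences of Cxcl12 and eGFP kept their size (1.83 and 1.64 against preosteoblast-like, 1.88 and 1.71 against periosteal-like cells), but the adjusted p rose to 0.368 and 0.1, and to 0.367 and 0.0977.

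Against endothelial-like cells, arterial-like and sinusoidal-like together, all 4 members were called, beside 44.2% of all genes (23.2% higher and 21.1% lower). Cxcl12 was higher in reticular-like cells by 3.12 ± 0.31 and eGFP by 2.12 ± 0.38, while Cxcr4 and Ackr3 were lower, at -7.28 ± 0.47 and -7.65 ± 0.70 (log2, edgeR adjusted p = 4.62e-06, 0.000548, 1.44e-07 and 2.38e-06). With free RNA subtracted the Cxcl12 difference was 3.14 with an adjusted p of 0.0832. Hemoglobin counts set an upper limit on free RNA of 1.68% and 8.95% of the UMIs in reticular-like cells and of 1.34% and 1.01% in endothelial-like cells, and what part it had in these differences was not tested.

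**Figure D2:**
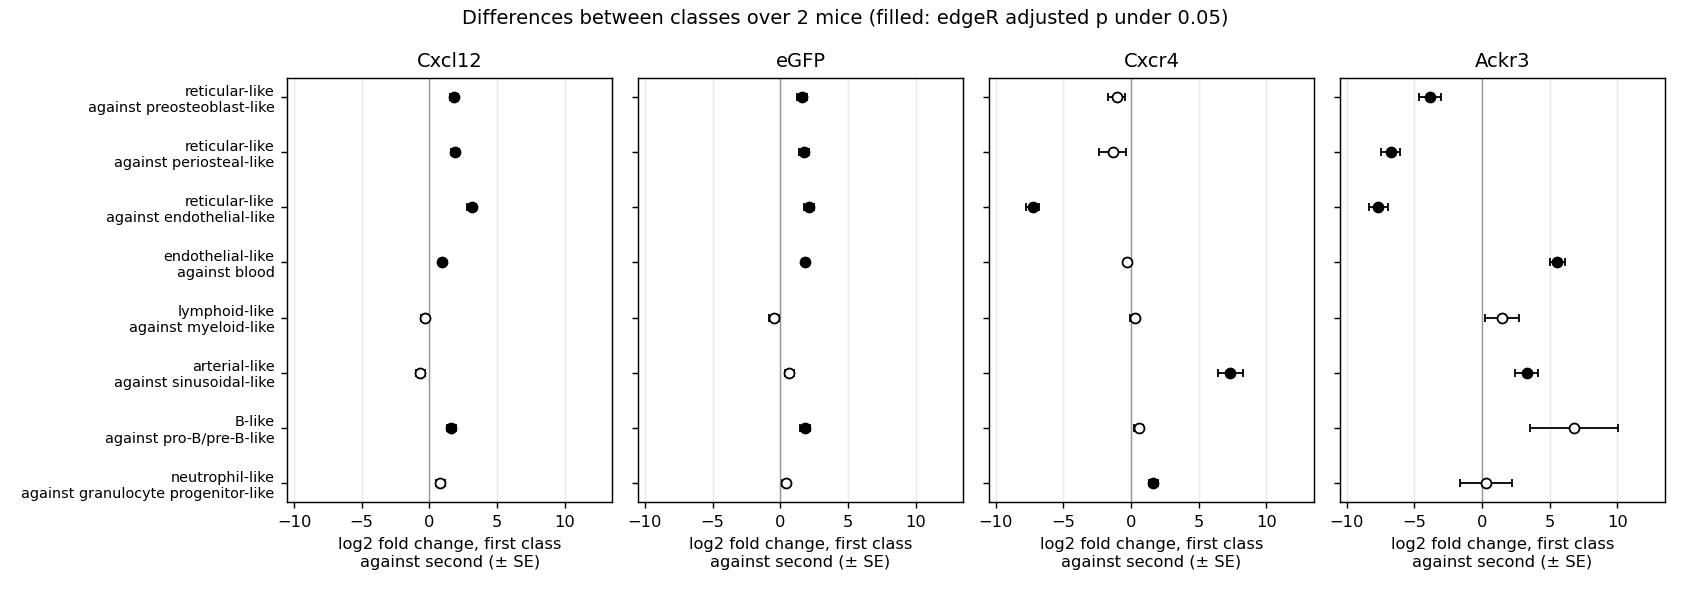
Log2 difference between 2 classes (x axis, ± SE, 2 mice) for each member in 8 comparisons (y axis), filled where edgeR's adjusted p was under 0.05. Cxcl12 and eGFP lie above 0 in the 3 reticular-like contrasts, and Ackr3 lies between -3.83 and -7.65 in them.

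Single cells differed in how evenly they carried the ligand. In reticular-like cells the median was 88.03 and 87.7 Cxcl12 UMIs per 10000 UMIs of a cell, with a 5th to 95th percentile of 39.6 to 145 and 46.0 to 137. In preosteoblast-like cells the medians were 31.6 and 9.86, with a 5th to 95th percentile of 0.838 to 93.5 in Mouse #1 and 0 to 74.96 in Mouse #2. In Mouse #1 the 95th percentile of preosteoblast-like cells thus lay above the reticular-like median, and in Mouse #2 it lay under it. At 2000 UMIs per cell, a Cxcl12 UMI was found in 99.5% (Mouse #1) and all (Mouse #2) of the reticular class, 85.4% and 68.8% of preosteoblast-like and 76.4% and 74.5% of arterial-like cells. Without thinning the latter shares were 99.2% and 94.7%, and 95.1% and 98.2%. When clusters were cut finer (Leiden resolution 1.0), preosteoblast-like cells stood at 3036 and 1209 CPM, and an unnamed cluster of 144 and 247 cells stood between them and the reticular-like cells with 3679 and 3966 CPM. At the coarser resolution of 0.5 the 4 reticular-like clusters lay close together, from 8633 to 10105 CPM over both mice, with the cluster led by Bmp4 and Serpina12 at the top in both (10001 and 10105 CPM). The finer clustering set apart a shallow reticular-like cluster of 50 and 69 cells above that range, with 12966 and 11675 CPM of Cxcl12 and 24480 and 17418 CPM of eGFP.

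**Figure D3:**
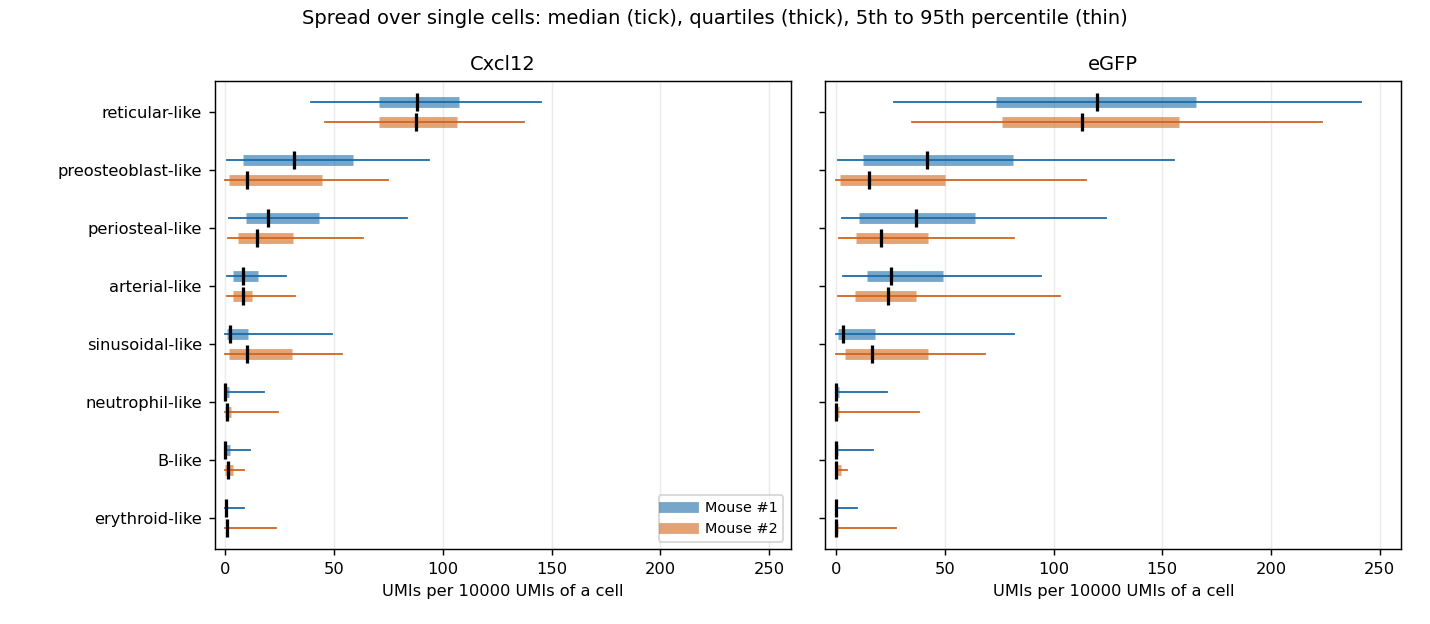
Cxcl12 (left) and eGFP (right) UMIs per 10000 UMIs of a cell in 8 classes; ticks are medians, thick bars quartiles and thin lines the 5th to 95th percentile, for each mouse. Reticular-like medians of Cxcl12 are 88.03 and 87.7, preosteoblast-like cells spread from near 0 up to 93.5, and blood medians are near 0.

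eGFP and Cxcl12 rose together from cell to cell, as described by Pearson's r at 2000 UMIs per cell of 0.514 and 0.433 in reticular-like (1239 and 2421 cells), 0.637 and 0.756 in preosteoblast-like (390 and 756 cells), 0.651 and 0.712 in periosteal-like (74 and 228 cells) and 0.510 and 0.524 in arterial-like cells (123 and 110 cells). These cells share a library and counting noise, so r is a description. In reticular-like cells 98.8% and 99.3% had UMIs of both, and in arterial-like cells 70.7% and 69.1%.

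The share of eGFP among eGFP and Cxcl12 UMIs was nearly the same in most stromal classes and stood apart in arterial-like cells. It was 58.7% (95% Wilson interval 58.5 to 58.9) and 58.0% (57.9 to 58.1) in reticular-like cells, 62.3% and 60.2% in preosteoblast-like cells and 62.1% and 59.5% in periosteal-like cells. In arterial-like cells it was 78.8% (77.8 to 79.8) and 77.1% (76.1 to 78.1), and in sinusoidal-like cells 58.4% (55.6 to 61.2) and 58.5% (56.6 to 60.4). Without the highest doublet scores the sinusoidal-like share was 58.7% and 61.4%, from 488 and 621 instead of 499 and 1085 Cxcl12 UMIs. Reticular markers summed to 1805 and 3642 CPM in sinusoidal-like cells, and what part this had in their share was not tested. Put as a ratio, arterial-like cells held 3.72 and 3.37 eGFP UMIs per Cxcl12 UMI, 2.62 and 2.44 times the ratio of the reticular-like cells of the same mouse. The median over single arterial-like cells with at least 20 such UMIs was 78.3% and 76.4% (89 and 76 cells), close to the share over the whole class. With 2 mice a class an exact two-sided permutation test cannot go below p = 0.333, and the intervals cover counting error only. The shallow cluster 8 lay on the other side, at 32.8% and 32.1%, and barcodes with 1 to 100 UMIs, whose RNA is mostly free, at 46.7% and 48.9%.

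**Figure D4:**
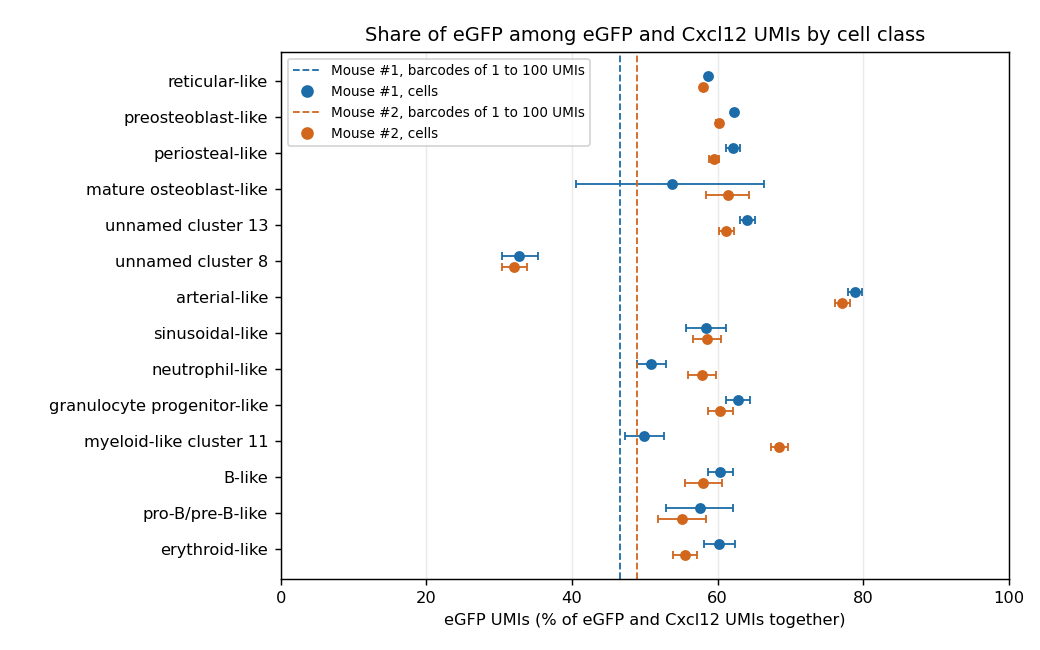
Percent of eGFP among eGFP and Cxcl12 UMIs (x axis, 95% Wilson intervals) in 14 classes, 1 point per mouse; dashed lines are barcodes of 1 to 100 UMIs. Arterial-like cells lie at 78.8 and 77.1%, reticular-like cells at 58.7 and 58.0% and cluster 8 at 32.8 and 32.1%.

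Blood cells carried some Cxcl12 and eGFP, and few cells held most of it. Over all blood cells the Cxcl12 level was 386 and 516 CPM and the eGFP level 531 and 818 CPM, against 3785 and 3614 CPM of Cxcl12 in the barcodes of 1 to 100 UMIs. At 2000 UMIs per cell, 16.4% and 27.5% of blood cells had a Cxcl12 UMI (46.7% and 64.5% without thinning), and of erythroid-like cells, a type that should lack it, 14.9% and 23.0%. The median depths were 12794 and 10590 UMIs in blood and 23809 and 25245 in erythroid-like cells. Without thinning, 51.8% and 75.6% of erythroid-like cells had a Cxcl12 UMI. Erythroid-like cells are part of blood, so their share is no separate background for blood as a whole. The 33 and 48 blood cells with the highest doublet scores (Scrublet, which scores likeness to 2 merged cells) held 60.1% and 58.3% of the Cxcl12 UMIs and 58.4% and 67.4% of the eGFP UMIs of blood. All 8 reticular markers had UMIs in every blood class, with a summed level of 281 to 3121 CPM against 17421 and 15016 CPM in reticular-like cells. In neutrophil-like cells 2117 and 2098 CPM of this sum came from Hp alone, a secreted hemoglobin-binding protein.

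Endothelial-like cells exceeded the average of the 3 blood classes in Cxcl12 by 0.91 ± 0.22, in eGFP by 1.85 ± 0.27 and in Ackr3 by 5.57 ± 0.54 (log2, edgeR adjusted p = 0.00345, 7.4e-05 and 1.89e-06), and 3 of 4 members were called beside 58.3% of all genes. Cxcr4 stood at -0.28 ± 0.28 (edgeR adjusted p = 0.426), with log2 differences of opposite sign in the 2 mice (-1.33 in Mouse #1 and 0.34 in Mouse #2). Without the cells of the highest doublet scores the differences of Cxcl12 and eGFP were 2.25 and 3.72, and with free RNA subtracted that of Cxcl12 was 1.81 with an adjusted p of 0.12.

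Cxcr4 was read out in blood and arterial-like cells and hardly at all in the stroma. B-like cells held 354 CPM in Mouse #1 and 223 CPM in Mouse #2, the highest mean of the classes at resolution 0.5. At resolution 1.0 the level was 251 and 100.3 CPM in B-like, 318 and 242 CPM in macrophage-like and 296 and 189 CPM in pro-B/pre-B-like cells, so B-like cells no longer ranked first. There the B-like class held 59 and 74 cells instead of 188 and 190. A cluster of 126 and 114 cells, with Rag1 and Vpreb3 among its top genes, was named pro-B/pre-B-like. The B-like class of resolution 0.5 thus cannot be read as mature B cells alone. At resolution 0.5 myeloid-like cluster 11 (205 and 151 CPM), neutrophil-like (213 and 140 CPM), pro-B/pre-B-like (216 and 127 CPM) and arterial-like cells (104 and 217 CPM) followed with overlapping ranges, and these 4 cannot be ordered. Granulocyte progenitor-like cells (80.4 and 57.7 CPM) and erythroid-like cells (48.1 and 34.6 CPM) came next without overlap. Every stromal class and the sinusoidal-like cells lay at or under 3.32 CPM. Reticular-like cells had 10 and 23 Cxcr4 UMIs in all, 0.609 and 0.758 CPM, far under the 31.8 and 16.8 CPM of the barcodes of 1 to 100 UMIs. The level was 2.00 and 1.33 CPM in preosteoblast-like and 0.741 and 2.29 CPM in periosteal-like cells. In Mouse #1 each blood class held more Cxcr4 than in Mouse #2, whereas arterial-like cells held less.

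**Figure D5:**
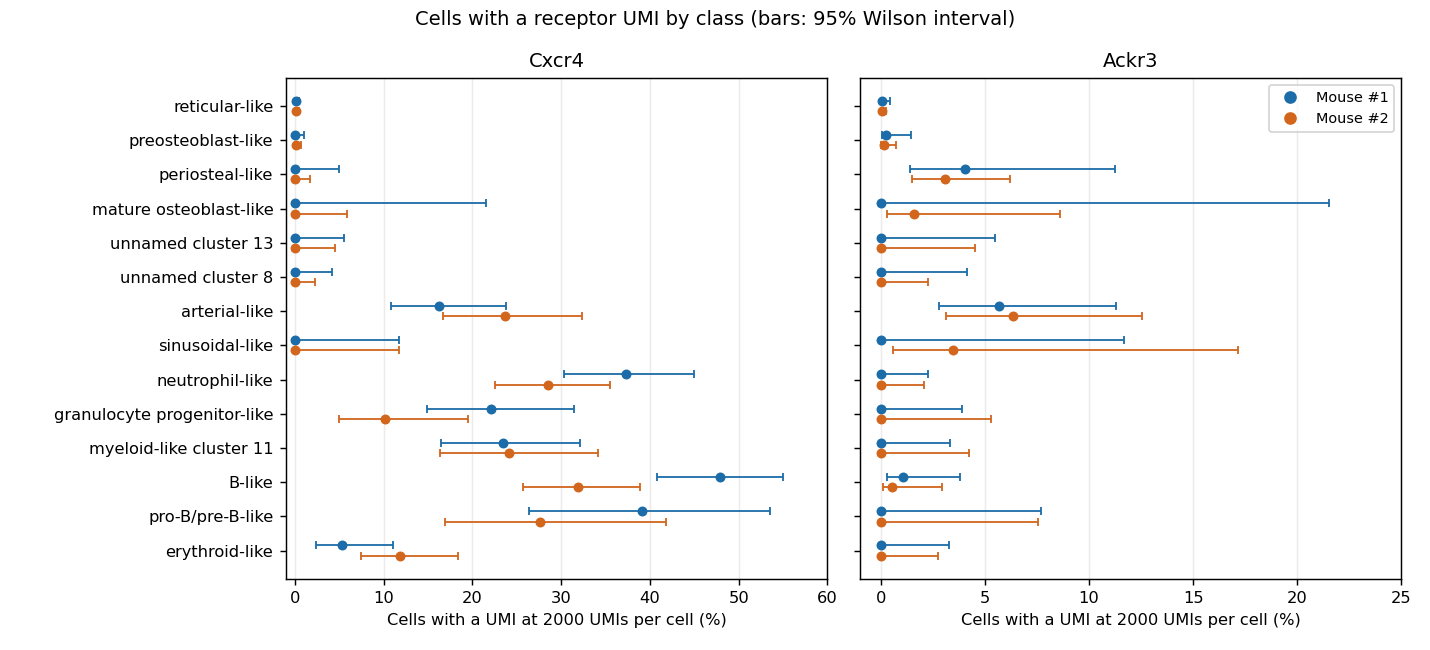
Percent of cells with a Cxcr4 UMI (left) or an Ackr3 UMI (right) after thinning to 2000 UMIs per cell, in 14 classes, 1 point per mouse with 95% Wilson intervals. Cxcr4 reaches 47.9 and 31.9% in B-like and 16.3 and 23.6% in arterial-like cells, and Ackr3 reaches 5.69 and 6.36% in arterial-like cells.

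At 2000 UMIs per cell, 47.9% (95% Wilson interval 40.8 to 55.0) and 31.9% (25.7 to 38.9) of B-like cells had a Cxcr4 UMI, 37.3% and 28.6% of neutrophil-like cells and 16.3% and 23.6% of arterial-like cells. Without thinning the shares were 63.3% and 49.5%, 74.1% and 63.7%, and 39.0% and 55.5%. They were 93.5% and 76.6% in pro-B/pre-B-like and 85.3% and 76.8% in granulocyte progenitor-like cells, above the B-like shares. Median depth was 4587 and 4072 UMIs in B-like but 33470 and 37619 UMIs in granulocyte progenitor-like cells. Shares without thinning thus order the blood classes otherwise than CPM does. In reticular-like cells the share was 0.0807% and 0.165% (0.644% and 0.701% without thinning) at a median depth of 12467 and 11608 UMIs. That they nearly lack the receptor was read from these same counts, so their share is no independent background.

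Arterial and sinusoidal vessels line the inflow and the exchange bed of the marrow. Between these cells the receptors differed and the ligand did not pass the test, with 2 of 4 members called beside 21.3% of 12516 genes (13.8% higher and 7.48% lower in arterial-like cells). Arterial-like cells held 156 and 329 Cxcr4 UMIs and sinusoidal-like cells 0 and 1, a ratio of levels of 151 over both mice (95% counting interval 27.1 to 5994, edgeR adjusted p = 2.65e-05). In Mouse #1 the ratio was at least 16.4-fold against a floor of 3 UMIs in the sinusoidal-like sum (6.33 CPM). Ackr3 was higher in arterial-like cells by 3.29 ± 0.82 (log2, edgeR adjusted p = 0.00945), from 47 and 97 against 2 and 3 UMIs. Cxcl12 stood at -0.66 ± 0.35 (edgeR adjusted p = 0.197) and eGFP at 0.67 ± 0.35 (edgeR adjusted p = 0.196). The reticular markers summed to 1805 and 3642 CPM in sinusoidal-like and 471 and 602 CPM in arterial-like cells, while the log2 difference of Cxcl12 was 0.03 in Mouse #1 and -1.13 in Mouse #2. The 5 sinusoidal-like cells highest in Cxcl12 held 73.1% and 64.5% of its UMIs in that class. What part this had was not tested.

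Neutrophils leave the marrow as they mature, and Cxcr4 holds them there. It was higher in neutrophil-like cells by 1.65 ± 0.34 (log2, edgeR adjusted p = 0.00068, both mice), the 1 member called, beside 46.9% of 12516 genes (21.6% higher and 25.3% lower). With stricter limits on cells (2000 genes, 10% mitochondrial UMIs) the difference was 0.68 with an adjusted p of 0.131. Median depth was 8402 and 9034 UMIs in neutrophil-like cells and 33470 and 37619 UMIs in granulocyte progenitor-like cells. At 2000 UMIs per cell, 37.3% and 28.6% against 22.1% and 10.1% of cells had a Cxcr4 UMI. Without thinning these shares were 74.1% and 63.7% against 85.3% and 76.8%. Per UMI, the Cxcr4 difference was thus called in the main fit but not with the stricter limits on cells. Shares of cells without thinning went the other way. Cxcl12 (0.82 ± 0.35), eGFP (0.39 ± 0.35) and Ackr3 (0.30 ± 1.90) did not pass (edgeR adjusted p = 0.0641, 0.382 and 0.926), although DESeq2 called Cxcl12 (1.13, adjusted p = 0.0143) and the stricter limits called Cxcl12 (1.34) and eGFP (0.92). Without the highest doublet scores Cxcl12 turned to -0.69 and eGFP to -1.61, the latter with an adjusted p of 0.00209.

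B-like cells stood at 0.58 ± 0.34 for Cxcr4 against pro-B/pre-B-like cells (log2, edgeR adjusted p = 0.231), and at -0.51 at the finer clustering. There the pro-B/pre-B-like class grew from 46 and 47 to 175 and 163 cells, and the B-like class fell from 188 and 190 to 59 and 74 cells. The contrast at resolution 0.5 is thus not one of mature B cells alone against their progenitors. Cxcl12 and eGFP were higher in B-like cells by 1.63 ± 0.36 and 1.83 ± 0.36 (log2, edgeR adjusted p = 0.00279 and 0.0012; 2.46 and 2.63 in Mouse #1, 0.84 and 1.02 in Mouse #2), 2 of 4 members called beside 25.6% of 12516 genes (11% higher and 14.5% lower). In B-like cells the 5 cells highest in Cxcl12 held 68.6% and 75.3% of its UMIs, and reticular markers summed to 2472 and 1070 CPM against 281 and 341 CPM in pro-B/pre-B-like cells. Ackr3 had 5 and 2 UMIs in B-like and 0 and 0 in pro-B/pre-B-like cells, which did not pass the test (edgeR adjusted p = 0.144) but passed with DESeq2 (adjusted p = 0.0487) and without a filter on low counts (adjusted p = 0.0274). Between lymphoid-like and myeloid-like cells 0 of 4 members were called, by edgeR, by DESeq2 or at an unadjusted p under 0.05, beside 35.8% of all genes (14.8% higher and 21% lower). There Cxcr4 stood at 0.26 ± 0.32, Cxcl12 at -0.33 ± 0.29, eGFP at -0.49 ± 0.37 and Ackr3 at 1.49 ± 1.24 (log2, edgeR adjusted p = 0.572, 0.407, 0.327 and 0.384). The sign differed between the mice for Cxcl12 (0.35 and -0.93) and eGFP (0.58 and -1.35). Without the highest doublet scores Cxcl12 and eGFP were lower in lymphoid-like cells (-1.77 and -2.70, edgeR adjusted p = 0.000483 and 3.14e-05), and with free RNA subtracted they stood at 2.60 and 0.41.

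Ackr3, the scavenging receptor, was read out in other classes than Cxcr4, except for arterial-like cells. The level was 31.3 and 63.9 CPM in arterial-like and 14.1 and 21.4 CPM in periosteal-like cells, and these ranges did not overlap. Cluster 13 held 4.35 and 8.30 CPM, sinusoidal-like cells 4.22 and 6.39 CPM and preosteoblast-like cells 4.72 and 1.05 CPM, without a clear order. Reticular-like cells, the most numerous class, had 4 and 3 UMIs in all, or 0.243 and 0.0989 CPM. In preosteoblast-like cells the 5 cells highest in Ackr3 held 81.8% and 93.3% of its UMIs, the level of Mouse #2 was 0.475 times that in barcodes of 1 to 100 UMIs, and at resolution 1.0 the class held 8 and 9 UMIs, with 25 and 6 in an unnamed cluster. Over both mice the ratio of levels to reticular-like cells was 15.1 (95% counting interval 6.78 to 39.5) in preosteoblast-like, 130 (60.5 to 331) in periosteal-like and 251 (119 to 635) in endothelial-like cells. Of all Ackr3 UMIs in cells, 39.2% and 42.9% came from arterial-like and 15.8% and 33.2% from periosteal-like cells. UMIs stood in few cells, with 5.69% and 6.36% of arterial-like and 4.05% and 3.07% of periosteal-like cells at 2000 UMIs (17.9% and 31.8%, and 16.2% and 11.8%, without thinning), against 0.0807% and 0.0413% in reticular-like cells. Arterial-like cells with UMIs of both receptors made up 2.44% and 3.64%. Blood classes other than B-like cells lay at or under 1.18 CPM.

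Genes whose levels ran most like those of a member were sought by Pearson's r of log2(CPM + 1) over 32 sums (16 clusters in 2 mice) among 9046 genes. These points share libraries and the clustering, and r is a description. Cxcl12 ran with Gas6 (0.974), eGFP (0.955), Tmem86a (0.953), Lepr (0.953), the leptin receptor of marrow stroma, and Amy1 (0.953), of which Gas6 was among the markers that named the reticular-like clusters. eGFP ran with Fbln5 (0.966), Cxcl12 (0.955), B4gat1 (0.953), Map1lc3a (0.943) and Fstl1 (0.940). Cxcr4 ran with Lyl1 (0.933), a hematopoietic and endothelial transcription factor, AI467606 (0.923), Plekhf2 (0.911), Mir142hg (0.909) and Atp2a3 (0.906). Ackr3 ran with the matrix genes Ltbp4 (0.893), Sparcl1 (0.882), Eln (0.862) and Fbln2 (0.856) and with Ly6a (0.861). Cxcl12 and Cxcr4 ran against each other (-0.812), and neither followed Ackr3 (-0.065 and 0.093).

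The other genes of the axis were read from 5 lists. Of the other ligands of these receptors, Mif, Adm and Hmgb1 were tested and Cxcl11 was not analysed here. Adm, which codes for adrenomedullin, exceeded its preosteoblast-like level in the reticular class (2.07 ± 0.28 on the log2 scale, edgeR adjusted p = 0.000291), 1 of 3 genes, with a list median of 0.00 as over all genes. Mif was higher in reticular-like cells than in periosteal-like (0.63 ± 0.19) and endothelial-like cells (1.01 ± 0.20), again 1 of 3 genes each time, with list medians of 0.63 and 0.78 against 0.09 over all genes. Against blood, endothelial-like cells were lower in Mif (-2.02 ± 0.18) and Hmgb1 (-1.51 ± 0.14) and higher in Adm (2.90 ± 0.34), beside 27.2% of all genes lower and 31.1% higher.

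Proteases that are known to cleave CXCL12 numbered 7. Of these 7 genes, 2 were lower than in preosteoblast-like cells, namely the gelatinases Mmp2 (-1.97 ± 0.57) and Mmp9 (-4.99 ± 0.42), and 0 were higher, with a list median of 0.25 against 0.00 and 9.52% of all genes called lower. Against periosteal-like cells 3 were lower (Mmp2, -3.40 ± 0.60, Mmp9, -2.94 ± 0.42, and Mmp14, -1.10 ± 0.34), with a list median of -1.10 against 0.09 and 9.01% of all genes called lower. Against endothelial-like cells Mmp14 and Ctsk were higher (1.12 ± 0.35 and 3.39 ± 0.60) and Dpp4, the dipeptidyl peptidase that inactivates the chemokine, was lower (-3.30 ± 0.68), beside 23.2% of all genes higher and 21.1% lower. In neutrophil-like cells 4 of 7 were higher and 2 lower than in granulocyte progenitor-like cells, beside 21.6% and 25.3% of all genes. Mmp9 stood at 2918 and 2414 against 50.6 and 72.05 scaled CPM (5.45 ± 0.46), and Elane, neutrophil elastase, at 14.96 and 6.46 against 11777 and 9571 scaled CPM (-9.99 ± 0.76), where scaled CPM carries edgeR's library factors.

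Genes of receptor signaling and desensitization numbered 16. In reticular-like against preosteoblast-like cells 2 were higher, the receptor kinase Grk5 (1.64 ± 0.27) and Rgs2 (0.71 ± 0.22), and Grk3 was lower (-1.55 ± 0.40), with a list median of -0.02 against 0.00. These 3 of 16 stand beside 20.3% of all genes called. Endothelial-like cells exceeded reticular-like cells in 9 of the 16, among them Gnai2, the inhibitory G protein subunit (-1.77 ± 0.14 for reticular-like against endothelial-like cells), and Rac2 (-3.15 ± 0.33), and were lower in 1 (list median -1.08 against 0.09 over all genes, of which 21.1% and 23.2% were called in these directions). Blood exceeded endothelial-like cells in 9, such as Dock2 and Vav1 of the Rac pathway (-4.28 ± 0.66 and -5.34 ± 0.55 for endothelial-like cells against blood), and was lower in 5, beside 27.2% and 31.1% of all genes. Lymphoid-like cells were lower than myeloid-like cells in 9 and higher in 1, beside 21% and 14.8% of all genes, with the arrestins Arrb1 and Arrb2 at -3.11 ± 0.34 and -3.40 ± 0.22, and neutrophil-like cells exceeded their progenitors in 11 and were lower in 1 (list median 0.93 against 0.00, with 21.6% and 25.3% of all genes called).

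Heparan sulfate proteoglycans, which hold CXCL12 on cell surfaces and in the matrix, were tested with 10 genes. Reticular-like cells were lower than preosteoblast-like cells in 4 and higher in 0, with Sdc3 at -3.41 ± 0.33 and Gpc1 at -1.46 ± 0.27 (list median -0.14 against 0.00, with 9.52% of all genes called lower). Against endothelial-like cells 7 were higher and 2 lower, with Gpc6 (4.33 ± 0.43), Sdc4 (3.68 ± 0.34) and Sdc1 (3.32 ± 0.40) ahead and a list median of 2.87 against 0.09 over all genes, of which 23.2% were higher and 21.1% lower. Endothelial-like cells in turn exceeded blood in 4 and were lower in 1, beside 31.1% and 27.2% of all genes, with the basement membrane genes Hspg2 and Agrn higher by 4.95 ± 0.28 and 3.65 ± 0.16. Arterial-like cells were lower than sinusoidal-like cells in 4 and higher in 1, beside 7.48% and 13.8% of all genes, with a list median of -1.002 against 0.26.

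Other chemokine receptors, 14 in the list and 11 tested in the broad classes, included 2 further scavengers. Ackr4, which takes up CCL19 and CCL21, reached 208 and 245 CPM in the reticular class, 183 and 118 CPM in preosteoblast-like and 25.9 and 42.6 CPM in periosteal-like cells, and it was higher in reticular-like than in periosteal-like cells (2.66 ± 0.31, edgeR adjusted p = 9.38e-05) and in endothelial-like cells (4.85 ± 0.38, edgeR adjusted p = 6.44e-07). Against preosteoblast-like cells it did not pass (0.69 ± 0.26, edgeR adjusted p = 0.0889). Ackr1, the chemokine binder of venular endothelium and erythroid cells, stood at 323 and 264 CPM in sinusoidal-like and 0 and 0 CPM in arterial-like cells (edgeR adjusted p = 1.09e-07), and at 41.9 and 38.6 CPM in erythroid-like cells. So arterial-like cells held Ackr3, sinusoidal-like cells Ackr1 and reticular-like cells Ackr4 as the highest of these 3 classes for each. Against preosteoblast-like cells 1 of 11 receptors was higher in the reticular class and 0 lower, namely Cx3cr1, at 1.29 and 1.67 scaled CPM against 0 and 0. The counts were 1 and 1 against periosteal-like and 2 and 3 against endothelial-like cells (list medians 0.40, -0.40 and -0.97), beside 10.8%, 9.19% and 23.2% of all genes higher and 9.52%, 9.01% and 21.1% lower. In the granulocyte series 6 of 10 were higher in neutrophil-like cells, Cxcr2, the receptor that draws neutrophils out of the marrow, among them at 556 and 452 CPM against 19.2 and 29.6 CPM (4.68 ± 0.36), and 2 were lower, beside 21.6% and 25.3% of all genes.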

How the data were processed

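Single-cell libraries of 2 mice were made with 10x Genomics 3′ chemistry. The authors processed reads with Cell Ranger (version 3.0.0 per the labels) against mm10 with reporter sequences added, and deposited raw UMI counts per gene and barcode, with 6794880 barcodes listed per library. Cells were kept by the study's stated limits. Counts were clustered with scanpy 1.11.5 (2000 variable genes, 30 components, 15 neighbors, Leiden resolution 0.5, with leidenalg 0.10.2), and 74 genes were left out, the members among them. A class took its name from at least 3 fixed markers raised 1.5-fold over the mean of the other clusters in at least 10% of cells. Scrublet's own threshold marked 2 and 3 cells and had not worked, so the 60 and 168 highest scores were removed as an alternative.

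UMIs were summed per mouse and class and tested with edgeR 4.0.16 (R 4.3.3, quasi-likelihood, TMM, filterByExpr with a minimum count of 10, Benjamini-Hochberg over all genes, call at 0.05), in place of the study's test over single cells, as cells are not replicates. Classes with under 20 cells in a mouse and cluster 11 entered no finer test. In the fits, 13326 genes passed for broad and 12516 for finer classes, the members included. Same-numbered classes come from the same animal; their deviations correlated at r = -0.0268 to 0.28 over genes. The members and the lists were chosen with earlier results of these data known. Named genes were the members and, per list and comparison, up to 4 called genes of largest change alike in both mice; the text gives a part of these, and Ackr4, Ackr1 and cluster genes beyond them were picked after their values were seen. Grk2 and Grk3 were matched by gene ID. Promoters and positions are RefSeq's (3 of 3 genes matched). Intervals and floors (3 UMIs) cover counting error only. Alternatives were DESeq2 1.42.0, upper-quartile scaling, no count filter, stricter cells, resolution 1.0, doublet scores removed, free RNA subtracted, a mouse block, each mouse alone and, added after seeing the data, cells of shared barcodes left out. Scripts were tested on simulated data.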

Additional observations from a re-analysis of the deposited data

How the results depend on the processing

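The log2 differences of the 4 members in 8 comparisons kept their direction and their side of the threshold under upper-quartile scaling, with cells of shared barcodes left out (an alternative added after seeing the data) and with a replicate block for the mouse, which changed no call in 32 of 32 results. Subtracting free RNA was run for the broad classes. For reticular-like cells it kept the sizes but ended the calls of Cxcl12 and eGFP against preosteoblast-like (1.83 and 1.64, adjusted p = 0.368 and 0.1) and periosteal-like cells (1.88 and 1.71, adjusted p = 0.367 and 0.0977), and of Cxcl12 against endothelial-like cells (3.14). In endothelial-like cells against blood the call of Cxcl12 ended too, while its difference rose from 0.91 to 1.81. Free RNA subtraction also turned Cxcl12 and eGFP in lymphoid-like against myeloid-like cells to 2.60 and 0.41. Stricter limits on cells ended the call of Cxcr4 in neutrophil-like cells (0.68). Without a count filter Cxcl12 and eGFP passed in arterial-like against sinusoidal-like cells (-0.65 and 0.68), and Cxcr4 passed in B-like against pro-B/pre-B-like cells (0.57), which resolution 1.0 turned to -0.51. In all, 7 of 32 results gained a call without the filter, the others being Cxcr4 for reticular-like against preosteoblast-like cells (-1.06), eGFP for lymphoid-like against myeloid-like cells (-0.53), Ackr3 for B-like against pro-B/pre-B-like cells (6.76) and Cxcl12 for neutrophil-like cells against their progenitors (0.79). Calls were also gained by 2 results with DESeq2 (Ackr3 in the B-like contrast, 4.24, and Cxcl12 in the neutrophil-like one, 1.13), 2 with stricter limits on cells (Cxcl12 and eGFP in the neutrophil-like contrast, 1.34 and 0.92), 2 without the highest doublet scores (Cxcl12 and eGFP in the lymphoid-like contrast, -1.77 and -2.70) and 1 with free RNA subtracted (Cxcr4 for reticular-like against preosteoblast-like cells, -4.94). The last of these rests on 10 and 23 reticular-like Cxcr4 UMIs before subtraction. Without the highest doublet scores Cxcl12, eGFP and Ackr3 in neutrophil-like against granulocyte progenitor-like cells turned to -0.69, -1.61 and -4.78, and resolution 1.0 turned Ackr3 there to -2.07. With 1 mouse left out, values with no test, eGFP for reticular-like against endothelial-like cells was 2.13 to 2.15, and Cxcr4 for arterial-like against sinusoidal-like cells 6.78 to 11.33, the latter without Mouse #2, where the sinusoidal-like sum was 0. The sign turned with the mouse left out for Cxcl12 (-0.96 to 0.35) and eGFP (-1.38 to 0.58) in lymphoid-like against myeloid-like cells and for Cxcr4 in endothelial-like cells against blood (-1.25 to 0.49). Without Mouse #1, Cxcl12 and eGFP in B-like against pro-B/pre-B-like cells fell to 0.84 and 1.01, and without Mouse #2 they were 2.46 and 2.63. Few UMIs lay behind the other values that moved, Ackr3 for reticular-like against preosteoblast-like cells (-3.15 without Mouse #1), Cxcr4 for reticular-like against periosteal-like cells (-0.32 without Mouse #2), and Ackr3 in the B-like (6.44 without Mouse #1) and neutrophil-like contrasts (4.81 without Mouse #2). Other causes were not tested. The contrasts rest on 2 mice and, for sinusoidal-like cells, on 29 and 29 cells.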
